A study of Mus musculus with 35 samples.

Results

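Mouse embryonic fibroblasts given the full JEGS set of reprogramming factors (Jdp2, Esrrb, Glis1 and Sall4) were compared with fibroblasts given the same set without Jdp2. The comparison uses 6 of the 35 libraries of the series, chosen by the arm and day in their names: JEGS on days 2, 4 and 6, and JEGS-Minus-Jdp2 on the same days, with 1 library per arm and day. All fibroblasts were isolated from E13.5 embryos of a cross of Oct4-GFP transgenic males (CBA/CaJ × C57BL/6J) with females of a 129 SvJaeJ strain, and were used at passage 2. Both arms received retroviruses for Esrrb, Glis1 and Sall4 over 48 hours, and were then kept in iCD3, an induction medium, with Rock inhibitor for up to 7 days. Only the JEGS arm received the Jdp2 retrovirus. The treatment label assigns all 4 viruses and 72 hours of induction to every library, against the names, and the names were followed. The Oct4-GFP allele reports activity of Pou5f1, and the cells are a bulk culture that was not sorted, so fewer cells of a type and less RNA per cell cannot be told apart.

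Jdp2 (Jun dimerization protein 2) is a basic leucine zipper protein that pairs with Jun proteins and with Atf2 and binds the same DNA elements as AP-1, where it is known mostly as a repressor. AP-1 is the family of Jun, Fos, Maf and Atf dimers that holds open many enhancers in fibroblasts and drives growth, wound and inflammatory genes. In reprogramming, fibroblast genes are shut and the pluripotency network of Pou5f1, Nanog and Sox2 is switched on, and AP-1 activity is known as a barrier to that change.

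Total expected counts were 1266379, 1682386 and 1456264 in JEGS on days 2, 4 and 6, and 2249268, 2253785 and 2904291 without Jdp2. Names of the JEGS files call them a repeat, and a pair of library kits is described without an assignment to libraries, so Jdp2 and any batch cannot be told apart. The fragment length implied by the deposited tables was 199.55 to 202.87 bases in JEGS and 207.41 to 210.45 without Jdp2, and mitochondrial genes took 4.17 to 5.13% of counts in JEGS and 3.24 to 3.42% without Jdp2. The part of these technical differences in the results was not tested. Each day was sampled once per arm, and nothing in the labels shows that the libraries come from separate cultures. The spread was taken from the 15 libraries of all 5 arms on days 2, 4 and 6. A p-value therefore reflects only how those libraries depart from additive effects of arm and day, which may be technical. Of the defining fibroblast markers, Pdgfra, Pdgfrb, Thy1, Col1a1, Col1a2 and Col3a1 had counts in all 6 libraries at 6.54 CPM or more, while Dcn and Lum were at 6.87 CPM or less in all of them (CPM without TMM scaling).

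Jdp2 RNA separated the arms on every day, and the other 3 factors did not. Levels are in CPM, the count scaled to the library's total, which does not correct for gene length, so genes are compared between arms only. Jdp2, at chr12:85599027-85639878 in mm10, stood at 926, 597 and 265 CPM on days 2, 4 and 6 in JEGS and at 19.6, 21.1 and 11.5 CPM without Jdp2. The lowest JEGS library was above the highest library without Jdp2, with a log2 fold change of 5.0 ± 0.32 (SE) and an adjusted p of 5.48e-07 in edgeR's quasi-likelihood test. Viral and endogenous Jdp2 RNA cannot be separated in these counts. Glis1 was at 357, 210 and 86.8 CPM in JEGS against 319, 249 and 189 CPM without Jdp2 (log2 fold change -0.31 ± 0.30, adjusted p 0.716 in edgeR). Esrrb was at 2677, 1860 and 989 CPM against 2720, 1960 and 1070 CPM, a log2 difference of -0.07 ± 0.28. Sall4 was at 3079, 2170 and 1283 CPM against 2701, 2207 and 1466 CPM, a log2 difference of -0.01 ± 0.19. The arms overlapped for these 3 factors, and Glis1 on day 6 had the widest gap between the arms.

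**Figure D1:**
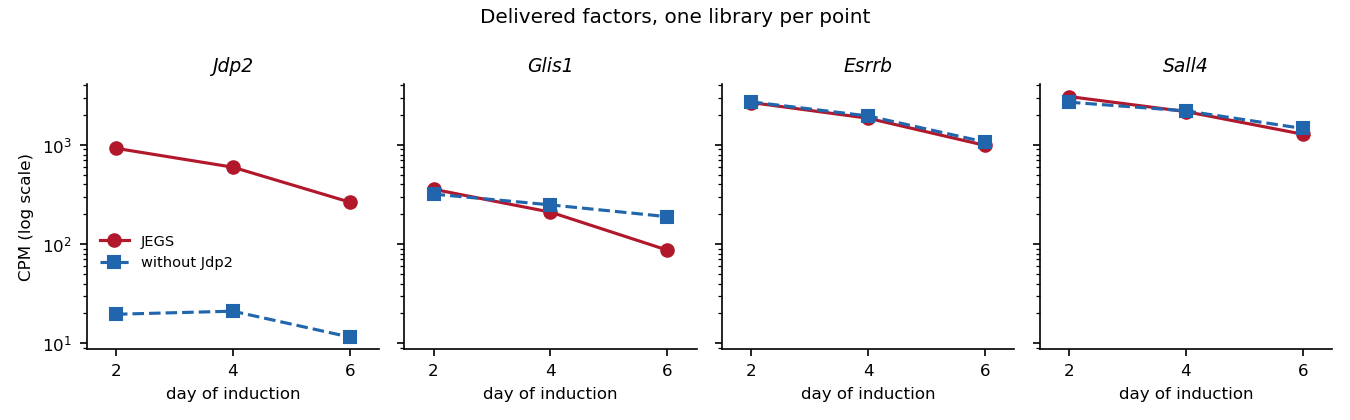
Level of the 4 delivered factors in CPM (log axis) against day of induction, with 1 library per point, circles for JEGS and squares for the set without Jdp2. Jdp2 is at 265 to 926 CPM in JEGS and at 11.5 to 21.1 CPM without Jdp2, and the lines of Esrrb and Sall4 lie on each other.

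Over 16603 genes tested, 468 differed between the arms at an adjusted p under 0.05 (2.82%). Of these, 136 were higher in JEGS (0.819% of genes tested) and 332 were lower (2.00%), and 462 of the 468 had the same sign on all 3 days. The median log2 fold change was 2.19 among the genes called higher and -1.36 among those called lower, beside 0.017 over all genes tested. The arms did not overlap for 407 of the 468, and for 2730 of all genes tested. Genes rich in G and C were more often among the lower calls: 148 lower genes came from the 4150 tested genes with the highest GC content of the longest transcript and 33 from the 4150 with the lowest, while the higher genes gave 45 and 21. By transcript length, the 4150 genes with the longest transcripts gave 119 lower genes and the 4154 with the shortest gave 60. The number of calls rested on single libraries: it was 138 without the JEGS library of day 4, 260 and 241 without those of days 2 and 6, and 153, 103 and 349 without the Jdp2-free libraries of days 2, 4 and 6. Without day 4 in all arms 2 genes were called by edgeR (1236 at an unadjusted p under 0.05), and each of the 465 called genes that could still be tested kept its direction. The remaining libraries had also served to choose those genes, so the kept direction is not independent.

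**Figure D2:**
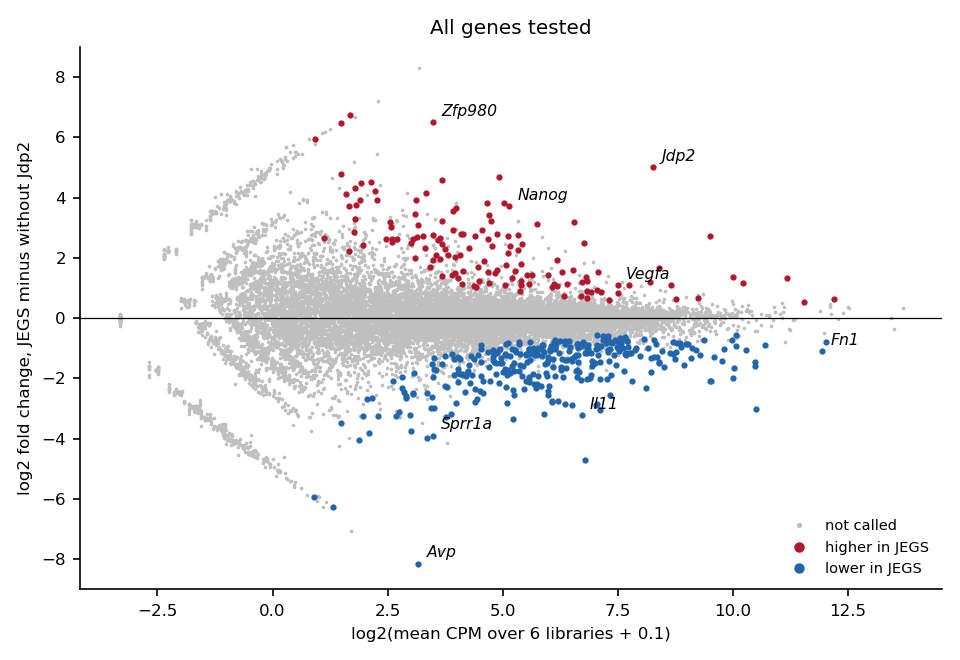
Log2 fold change of JEGS minus the set without Jdp2 against log2 of the mean CPM over the 6 libraries plus 0.1, with 1 point per gene tested. The 136 genes called higher and the 332 called lower are coloured, and most lower genes lie nearer to 0 than most higher genes.

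Among the AP-1 subunits themselves, 4 of 15 tested were lower in JEGS and 0 were higher, beside 2.00% and 0.819% of all genes (edgeR, 3 and 5 members higher and lower at an unadjusted p under 0.05). The median log2 fold change of the list was -0.50. Fosb, an immediate early Fos protein, was at 1.59, 0 and 0 CPM in JEGS and at 16.3, 4.82 and 2.31 CPM without Jdp2. Every JEGS library was below every library of the other arm, although the day 6 level of 2.31 CPM is only a few counts (log2 fold change -3.83 ± 0.87, adjusted p 0.0246 in edgeR). Maff, a small Maf protein, was at 12, 20.7 and 17.4 CPM against 45.3, 65.3 and 30.0 CPM (log2 fold change -1.48 ± 0.33). Atf3, a stress-induced partner of Jun, was at 7.17, 4.60 and 7.72 CPM against 14.0, 14.5 and 20.1 CPM (log2 fold change -1.33 ± 0.32). Fosl2, known also as Fra-2, was at 23.9, 18.4 and 16.1 CPM against 47.6, 36.4 and 37.2 CPM (log2 fold change -1.05 ± 0.27, adjusted p 0.0483). None of these 4 overlapped between the arms.

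The Jun genes and Fos did not pass the test. Jun was at 115, 87.4 and 78.4 CPM in JEGS and at 164, 124 and 132 CPM without Jdp2, with no overlap and an adjusted p of 0.16 in edgeR. Junb was at 377, 94.9 and 122 CPM against 524, 153 and 262 CPM, lower on each day but with ranges that overlap (adjusted p 0.37). Jund was at 327, 281 and 312 CPM against 176, 232 and 328 CPM. Fos pointed the other way, at 124, 22.4 and 20.6 CPM in JEGS against 35, 11.4 and 9.56 CPM, a log2 difference of 1.43 ± 0.52 with an adjusted p of 0.19. Its JEGS library was the higher on every day, while the ranges of the arms overlapped. Among ATF and CREB family genes, which bind related elements, 3 of 16 were lower in JEGS: Creb5 (log2 fold change -2.65 ± 0.63), Creb3l1 (-1.26 ± 0.26) and Creb3l2 (-0.73 ± 0.17). Atf2, a known partner of Jdp2, was at 51.0, 67.3 and 57.2 CPM against 44.3, 61.8 and 67.9 CPM, and did not pass.

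**Figure D3:**
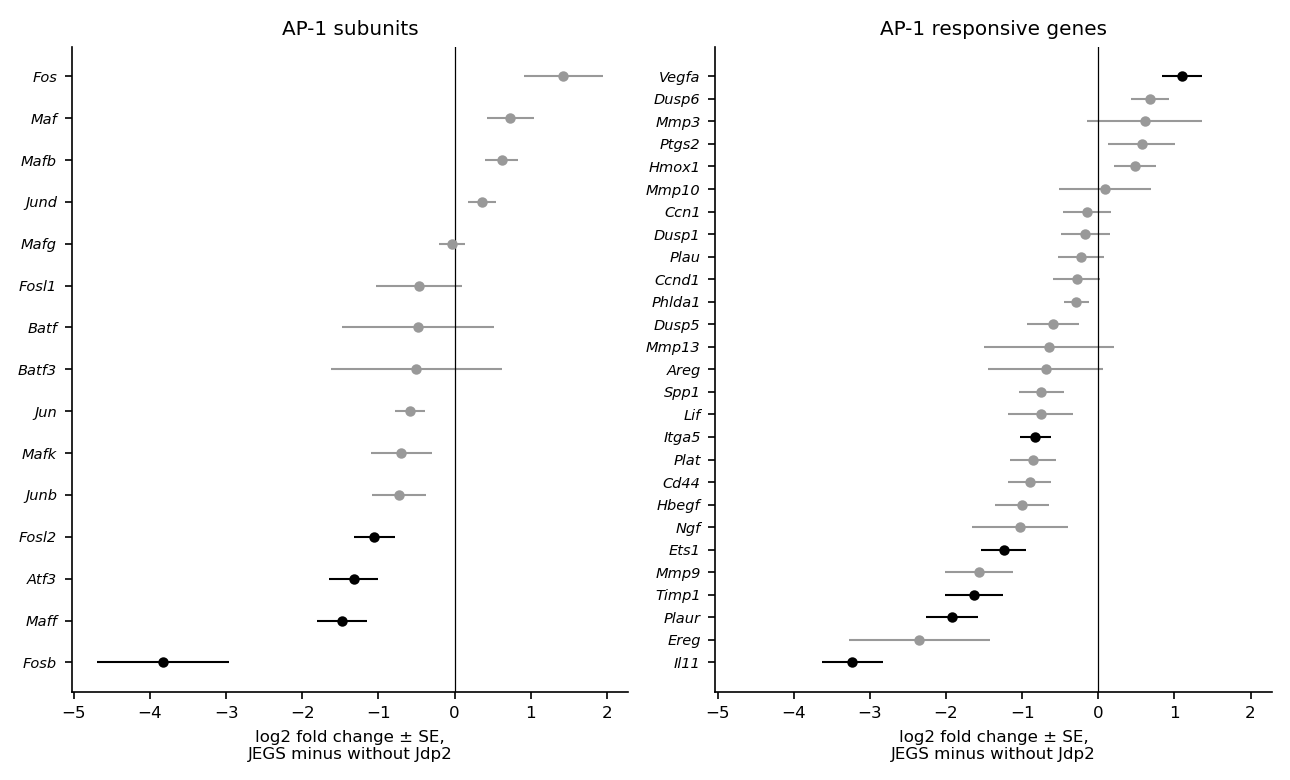
Log2 fold change of JEGS minus the set without Jdp2, with its SE, for the 15 AP-1 subunits tested (left) and 27 of the 28 AP-1 responsive genes tested (right), black where the adjusted p is under 0.05 and grey elsewhere. Fosb and Il11 lie farthest to the left, and Vegfa is the only black point to the right of 0.

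The promoters of some called genes carry the letters of the elements that AP-1 and Jdp2 bind, and a few are shown so that the element can be read beside the gene's values. The motifs TGANTCA and TGACGTCA (the cyclic AMP response element) were searched in the 250 bases before each annotated start of the RefSeq genes (GRCm38.p6). A gene can have several starts: Maff has 3, and Il11, Creb5 and Igfbp2 have 2 each, of which 1 is shown. TGANTCA takes in the TPA response element, TGAGTCA or TGACTCA, and is wider, since it also allows A or T in the middle. Each motif reads as itself on the other strand, so 1 search covers both, and neither motif contains the other. Il11, Plaur, Sprr1a, Met, Osgin1, Maff, Creb5 and Cdkn2b were lower in JEGS, and Ptgds and Igfbp2 were higher. Windows of 80 bases follow, 5′ to 3′ along the gene, with each copy of either motif in capitals. Sprr1a has 2 copies in its window, whose first bases lie 146 and 116 bases before the start.
Il11 (chr7:4778197-4778276, minus strand): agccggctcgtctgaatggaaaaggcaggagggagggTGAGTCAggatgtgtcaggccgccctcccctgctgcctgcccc
Plaur (chr7:24462377-24462456, plus strand): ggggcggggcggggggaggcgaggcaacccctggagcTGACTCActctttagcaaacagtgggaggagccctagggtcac
Sprr1a (chr3:92485955-92486034, minus strand): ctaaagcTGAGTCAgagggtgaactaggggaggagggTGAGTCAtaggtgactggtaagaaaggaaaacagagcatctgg
Met (chr6:17463866-17463945, plus strand): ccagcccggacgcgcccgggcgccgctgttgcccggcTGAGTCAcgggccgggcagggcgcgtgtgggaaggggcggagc
Osgin1 (chr8:119437013-119437092, plus strand): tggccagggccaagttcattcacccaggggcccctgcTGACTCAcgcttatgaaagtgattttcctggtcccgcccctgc
Maff (chr15:79347440-79347519, plus strand): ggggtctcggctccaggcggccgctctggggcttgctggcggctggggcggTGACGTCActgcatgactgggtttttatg
Creb5 (chr6:53287222-53287301, plus strand): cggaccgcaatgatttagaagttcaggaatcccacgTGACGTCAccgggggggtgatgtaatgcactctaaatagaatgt
Cdkn2b (chr4:89311035-89311114, minus strand): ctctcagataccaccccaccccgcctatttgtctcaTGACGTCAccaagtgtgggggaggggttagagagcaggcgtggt
Ptgds (chr2:25469750-25469829, minus strand): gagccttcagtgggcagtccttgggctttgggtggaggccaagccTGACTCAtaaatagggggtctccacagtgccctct
Igfbp2 (chr1:72825307-72825386, plus strand): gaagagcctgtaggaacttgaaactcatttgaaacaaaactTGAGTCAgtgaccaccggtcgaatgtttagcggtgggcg
TGANTCA was found in 8.58% of 338 windows of genes lower in JEGS (251 of 332 genes matched), in 6.87% of 131 windows of genes higher (91 of 135 matched, Jdp2 left out), in 4.70% of the 15162 windows of all genes tested and in 6.75% of all 32851 windows. TGACGTCA was found in 2.96%, 0.763%, 2.43% and 1.55% of the same windows. The TGANTCA shares include matches that are not the TPA response element, such as TGAATCA of Avp and Sbsn. These shares describe letters near annotated starts, and they carry no test. AP-1 also binds far from starts, which these windows do not cover.

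Of 28 tested members of the list of AP-1 responsive genes, which AP-1 is known to switch on, 5 were lower in JEGS, 1 was higher and 22 did not pass. These counts stand beside 2.00% lower and 0.819% higher among all genes tested. The list's median log2 fold change was -0.72. Il11, a fibroblast cytokine, was at 29.5, 19 and 8.36 CPM in JEGS and at 345, 132 and 94.6 CPM without Jdp2. Its highest JEGS library was below the lowest library of the other arm, with a log2 fold change of -3.23 ± 0.40 and an adjusted p of 0.000549 in edgeR. Plaur, the urokinase receptor, was at 39.1, 35.1 and 14 CPM against 155, 112 and 65.9 CPM (log2 fold change -1.92 ± 0.34). Timp1, an inhibitor of metalloproteinases, was at 26.3, 40.8 and 33.4 CPM against 107, 121 and 82.7 CPM (log2 fold change -1.64 ± 0.38). The arms did not overlap for either gene. Ets1 and the fibronectin receptor chain Itga5 were lower (log2 fold changes -1.24 ± 0.29 and -0.83 ± 0.20), and their ranges overlapped across days. Vegfa, an angiogenic growth factor, was the member that was higher, at 304, 243 and 187 CPM against 93.8, 96.0 and 163 CPM (log2 fold change 1.10 ± 0.26).

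Well-known AP-1 targets were also among the members that did not pass. Mmp9 was at 31.9, 31.6 and 38.6 CPM in JEGS against 71.4, 68.8 and 167 CPM, and Ccnd1 at 486, 320 and 264 CPM against 553, 397 and 345 CPM. Mmp9 did not overlap between the arms and had an adjusted p of 0.079 in edgeR. Of 21 metalloproteinases and their inhibitors 2 were lower, Timp1 and Adam8 (log2 fold change -1.45 ± 0.34), and 0 were higher (0 higher and 9 lower at an unadjusted p under 0.05). Of 16 chemokines and interleukins 3 were lower, beside 2.00% of all genes tested. Besides Il11 these were Ccl2, which draws monocytes, at 16.7, 23.6 and 14.2 CPM against 99.9, 83.8 and 69.5 CPM, and Cx3cl1 at 5.58, 7.48 and 14.2 CPM against 24.7, 42.5 and 48.5 CPM. Neither chemokine overlapped between the arms. The count of lower AP-1 subunits was 0 in edgeR without day 2, without day 4, without any 1 of the 3 JEGS libraries and without the Jdp2-free library of day 2 or day 4, and the count of lower AP-1 responsive genes was 0 without day 4 and 2 to 3 without any 1 of the 6 libraries. The count of lower metalloproteinases and inhibitors was 0 without day 2, without day 4, without any 1 of the 3 JEGS libraries and without the Jdp2-free library of day 2 or day 4, and 4 without that of day 6. The count of lower chemokines and interleukins was 0 without day 4, and 1 without the JEGS library of day 2 or day 4 or the Jdp2-free library of day 4. The count of lower ATF and CREB family genes was 0 without the JEGS library of day 4 or day 6 or the Jdp2-free library of day 2 or day 4. DESeq2 called 3 lower AP-1 subunits and 5 lower AP-1 responsive genes with all libraries.

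Of 26 core pluripotency genes tested, 9 were higher in JEGS (34.6%, beside 0.819% of all genes), 0 were lower (0 at an unadjusted p under 0.05 too) and 17 did not pass. The list's median log2 fold change was 2.37, and 25 of its 26 members had a positive value. Nanog, which stabilises the pluripotent state, was at 7.17, 39.7 and 149 CPM on days 2, 4 and 6 in JEGS, and at 0, 0.877 and 14.8 CPM without Jdp2. It was higher in JEGS on each day, while its day 6 level without Jdp2 exceeded its day 2 level in JEGS (log2 fold change 3.70 ± 0.67, adjusted p 0.00676 in edgeR). Pou5f1, at chr17:35506018-35510772 in mm10, was at 16.7, 107 and 383 CPM against 0.467, 7.45 and 46.8 CPM (log2 fold change 3.19 ± 0.65). Utf1, an embryonic stem cell chromatin factor, was at 7.17, 15.5 and 119 CPM against 0.934, 0.877 and 6.92 CPM (log2 fold change 3.83 ± 0.54, adjusted p 0.00202). Utf1 is the one of these 3 whose arms did not overlap, and its gap was narrow. Its day 2 level in JEGS was 7.17 CPM and its day 6 level without Jdp2 was 6.92 CPM. Without TMM scaling these were 7.11 and 7.23 CPM, so the arms overlapped.

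Other called members included Dppa5a, Tdgf1, L1td1, Nr0b1 and Mybl2, with log2 fold changes from 1.52 ± 0.36 (Mybl2) to 3.82 ± 0.70 (Dppa5a). Dppa5a had no counts on day 2 in either arm, and was at 6.90 and 176 CPM on days 4 and 6 in JEGS against 0 and 12.9 CPM. Tdgf1, a Nodal co-receptor, was likewise at 0 CPM on day 2 in both arms, and reached 89.4 CPM in JEGS and 15.2 CPM without Jdp2 on day 6. L1td1, an RNA-binding protein of stem cells, reached 177 CPM against 28.3 CPM on day 6. The list's median difference in log2 CPM was 0.40 on day 2, 1.74 on day 4 and 2.59 on day 6, with a slope difference called for 0 of the 26 members.

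Pou5f1 and Nanog had their highest levels on the last day sampled in both arms. In the full series without Jdp2, without TMM scaling, Pou5f1 was at 0.532 CPM on day 0, 24.7 CPM on day 5 and 81.3 CPM on day 7, so that its highest library was below the 111 CPM of JEGS on day 4. Nanog without Jdp2 was at 34.0 CPM on day 7, close to the 41.0 CPM of JEGS on day 4. Sox2, at 128, 105 and 208 CPM in JEGS against 56.5, 80.7 and 92.0 CPM, did not overlap between the arms and had an adjusted p of 0.08 in edgeR. Lin28a, Dppa2, Dppa3, Dppa4, Zfp42, Fgf4, Gdf3 and Fbxo15 also did not pass, and each was 0 CPM on day 2 without Jdp2. In JEGS on day 2 all of them except Lin28a (2.37 CPM without TMM scaling) were at 0 CPM too. Cdh1 was the member with a negative value, at 94.9, 144 and 147 CPM against 75.6, 255 and 235 CPM.

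Among 17 naive pluripotency factors 2 were higher, Nanog and Gbx2 (log2 fold change 2.30 ± 0.59), and 0 were lower. Tet1, which oxidises methylated cytosine, was the called gene of 14 DNA methylation and demethylation enzymes, at 12, 33.4 and 127 CPM in JEGS against 2.8, 9.65 and 22.4 CPM (log2 fold change 2.16 ± 0.53). The count of higher core pluripotency genes was 0 in edgeR without day 4, without the JEGS library of day 6 and with no term for day in the fit. It was 2 without either library of day 4, 4 without the Jdp2-free library of day 2 or day 6, 8 with DESeq2 and 20 when only the 6 libraries were fitted.

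**Figure D4:**
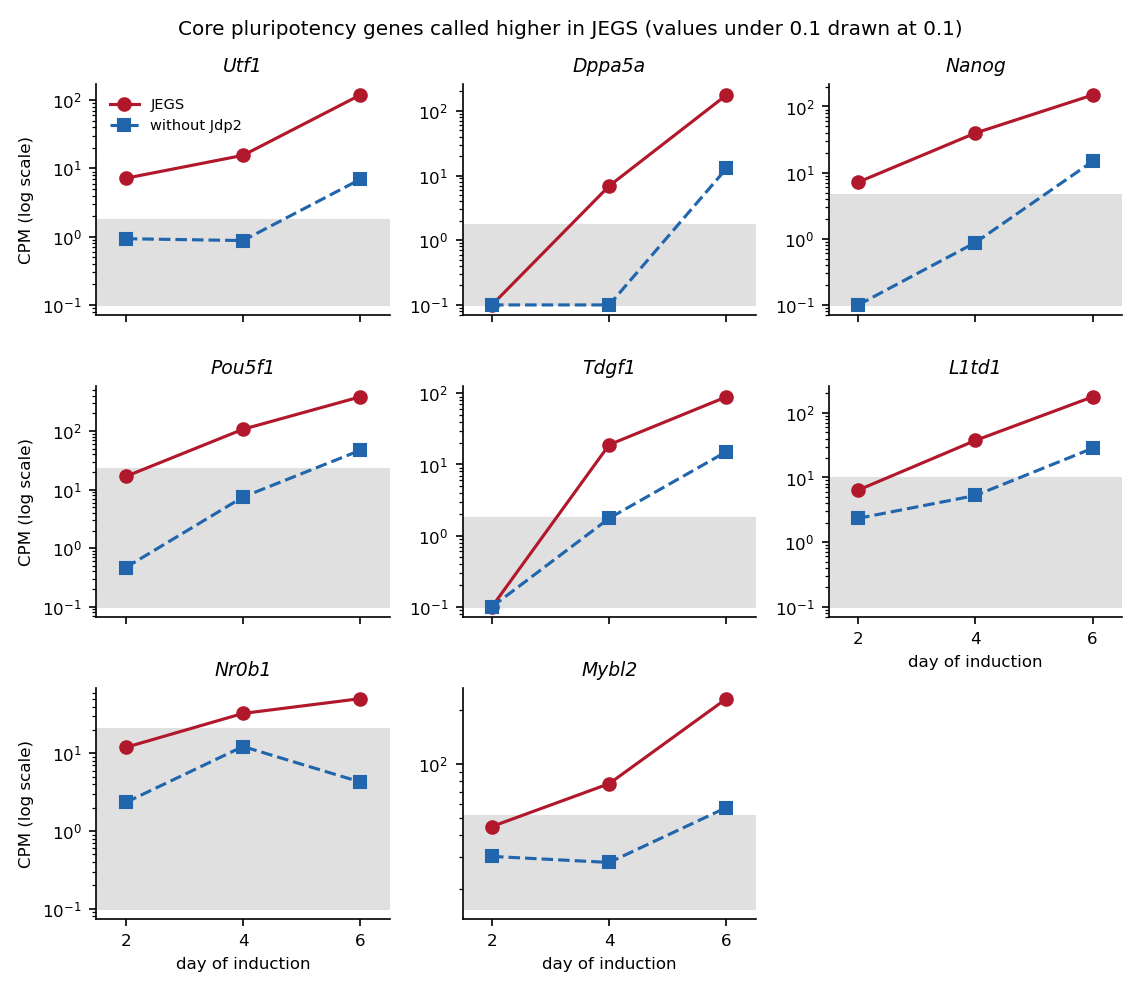
Level in CPM (log axis) of 8 of the 9 core pluripotency genes called higher in JEGS against day of induction, with 1 library per point, circles for JEGS, squares for the set without Jdp2 and a grey band for the range in the arms that lack Esrrb, Glis1 or Sall4 (9 libraries, same days). On day 6 Nanog is at 149 CPM in JEGS, 14.8 CPM without Jdp2 and at most 4.51 CPM in the other arms.

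Of 21 genes of the extra-embryonic primitive endoderm tested, 6 were lower in JEGS, 0 were higher (1 higher at an unadjusted p under 0.05) and 15 did not pass, with a median log2 fold change of -0.93. Among all genes tested 2.00% were lower and 0.819% higher. Sox7 was at 0.797, 2.30 and 5.79 CPM in JEGS and at 6.07, 9.65 and 36.3 CPM without Jdp2 (log2 fold change -2.49 ± 0.51). Sox17, a driver of endoderm, was at 0, 2.30 and 14 CPM against 0.467, 17.1 and 46.5 CPM (log2 fold change -2.26 ± 0.55). JEGS was lower on every day for both genes, although the day 2 level of Sox17 without Jdp2 is 1 count. The arms overlapped for Sox17. For Sox7 the gap was narrow, between 5.79 CPM in JEGS on day 6 and 6.07 CPM without Jdp2 on day 2. Without TMM scaling these Sox7 levels were 6.18 and 5.78 CPM, so the arms overlapped. Other members called included the basement membrane genes Col4a1, Col4a2 and Lamb1, which fibroblasts also express. The count of 6 was 3 without the Jdp2-free library of day 4 and 0 without day 4 in all arms.

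Epithelial genes did not move as 1 group: 4 of 31 were lower and 1 was higher, beside 2.00% and 0.819% of all genes tested. The simple keratins were lower, Krt8 at 18.3, 20.7 and 25.7 CPM in JEGS against 148, 190 and 141 CPM (log2 fold change -2.87 ± 0.37), and its partner Krt18 at 60.6, 64.4 and 57.2 CPM against 285, 236 and 225 CPM (log2 fold change -2.02 ± 0.33). Krt19 was at 310, 150 and 102 CPM against 529, 489 and 453 CPM. None of the 3 keratins overlapped between the arms. Esrp2, an epithelial splicing factor, was higher, at 83.7, 92.6 and 23.2 CPM against 18.2, 20.6 and 13.8 CPM (log2 fold change 1.80 ± 0.33). Epcam was at 0.797, 23 and 77.2 CPM against 0.467, 12.7 and 54.4 CPM, an adjusted p of 0.63 in edgeR. Of 9 keratinocyte markers, 4 with a positive and 5 with a negative value, Sfn (log2 fold change -2.05 ± 0.31) and Itga6 (-1.08 ± 0.23) were lower and 0 were higher, with a list median of -0.13. The list summed to 188 to 236 CPM in JEGS and 299 to 691 CPM without Jdp2, and Sfn and Itga6 made up most of that sum. Sfn was at 20.6 to 66.2 CPM against 76.1 to 265 CPM, and Itga6 at 100 to 126 CPM against 162 to 355 CPM. Of 14 endothelial markers, 3 with a positive and 11 with a negative value, Flt1 (-2.75 ± 0.35) and Cdh5 (-2.43 ± 0.46) were lower and 0 were higher. Pecam1, Cldn5 and Vwf had positive values, 0.85 ± 0.73, 1.52 ± 0.61 and 1.18 ± 0.59, and did not pass. The list summed to 209 to 370 CPM against 386 to 513 CPM. Of the defining markers, Trp63 had a count in 1 of the 6 libraries, Krt5 in 3 and Krt14 in 2, while Kdr, Flt1 and Cdh5 had counts in all 6. Their part in the result was not tested.

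Matrix and cytoskeletal genes of mesenchymal cells were mostly lower among the calls, beside 2.00% lower and 0.819% higher among all genes tested. Of 32 collagens 7 were lower and 1, Col6a3, was higher. The list as a whole had 14 positive and 18 negative values, with a median log2 fold change of -0.14. Col5a3, a minor fibrillar collagen chain, was at 51.8, 27.0 and 12.9 CPM in JEGS against 309, 280 and 154 CPM (log2 fold change -3.06 ± 0.32, adjusted p 0.000202 in edgeR). Col7a1, the anchoring fibril collagen, was at 553, 251 and 84.2 CPM against 1724, 1063 and 648 CPM (log2 fold change -2.10 ± 0.29). Col4a2 was at 788, 458 and 327 CPM against 1861, 1454 and 1329 CPM (log2 fold change -1.65 ± 0.20), and Col16a1 had a log2 fold change of -1.77 ± 0.25. The arms did not overlap for these 4 genes.

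Of 22 mesenchymal regulators and effectors 3 were lower and 0 higher (1 higher at an unadjusted p under 0.05). The list had 8 positive and 14 negative values, with a median log2 fold change of -0.22. Fn1, fibronectin, was at 2217, 2698 and 2612 CPM in JEGS and at 4581, 5467 and 6070 CPM without Jdp2 (log2 fold change -1.10 ± 0.23). Vim, the intermediate filament of mesenchymal cells, was at 885, 870 and 680 CPM against 2066, 1675 and 1363 CPM (log2 fold change -1.06 ± 0.17), and Tgfb1 at 59.0, 49.5 and 28.9 CPM against 138, 130 and 87.7 CPM. JEGS lay below the other arm in all libraries for the 3 genes. Of 17 contractile genes 3 were lower, Pdlim7 (-1.50 ± 0.19), Tpm1 (-0.86 ± 0.18) and Cnn2 (-0.76 ± 0.16), and 0 higher (0 at an unadjusted p under 0.05). Of 19 targets of YAP, a mechanosensitive co-activator, Ankrd1 (-2.48 ± 0.38) and Axl (-0.93 ± 0.23) were lower. The contractile list had 3 positive and 14 negative values (median -0.68), and the YAP list 3 and 16 (median -0.36).

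Elastic fibre and fibroblast genes were called in both directions. Eln, tropoelastin, was at 35.9, 42.0 and 36.7 CPM in JEGS against 10.3, 10.5 and 9.89 CPM (log2 fold change 1.91 ± 0.49), and Fbln5, which assembles elastin, at 3.19, 8.05 and 3.86 CPM against 0.934, 0.877 and 1.32 CPM (log2 fold change 2.21 ± 0.55). Both were higher in all JEGS libraries. Ltbp3 and Emilin1 of the same list of 19 were lower, by -1.61 ± 0.27 and -1.23 ± 0.20, with Efemp2 as the third lower gene. Of 27 fibroblast and stromal genes 2 were higher, Fbln5 and the surface marker Thy1 (1.44 ± 0.31), and 2 were lower, Fbln2 (-1.06 ± 0.21) and Col1a1 (-0.85 ± 0.19). Of the 27, 15 had a positive and 12 a negative value, with a median log2 fold change of 0.51. The summed CPM of the list, which is weighted to its most abundant genes, went the other way. It was 1676 to 2965 CPM in JEGS and 2629 to 3679 CPM without Jdp2, so the ranges overlapped. The sum was lower in JEGS on each day, at 2965, 2230 and 1676 CPM against 3679, 2891 and 2629 CPM on days 2, 4 and 6.

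Among signalling genes, Wnt pathway members were split. Sfrp1 and Wif1, secreted Wnt inhibitors, were higher (log2 fold changes 2.10 ± 0.44 and 1.09 ± 0.27), while the ligand Wnt4 and the receptor Lgr5 were lower (-1.79 ± 0.35 and -1.81 ± 0.40), of 27 tested. Of 29 growth factor and receptor tyrosine kinase genes, Igfbp2 was higher (1.19 ± 0.28), and Met and Igfbp4 were lower (-1.11 ± 0.26 and -0.78 ± 0.17). Cdkn2b, an inhibitor of the cell cycle, was the called gene of 16 CDK inhibitor and senescence genes, at 12.8, 15.5 and 8.36 CPM in JEGS against 32.7, 36.4 and 31.6 CPM (log2 fold change -1.45 ± 0.33). Nes, an intermediate filament of neural and mesenchymal progenitors, was the called gene of 12 neural markers, at 54.2, 66.2 and 85.5 CPM against 188, 251 and 333 CPM. The arms did not overlap for Cdkn2b or Nes.

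A few metabolic genes were higher. Pdk1, which keeps pyruvate out of the mitochondrion, was at 537, 565 and 413 CPM in JEGS and at 103, 205 and 202 CPM without Jdp2 (log2 fold change 1.66 ± 0.24, adjusted p 0.00156 in edgeR), the called gene of 25 in glycolysis and lactate export. Acaa2 and Acadl, of fatty acid oxidation, were higher by 1.22 ± 0.23 and 1.05 ± 0.22, 2 of 24 tested. The mitochondrially encoded mt-Nd1, mt-Nd2 and mt-Atp8 were higher by 0.55 to 0.63, of 13 tested, beside the higher mitochondrial share of the JEGS libraries given above. Psat1, of serine synthesis, was higher by 0.92 ± 0.22, and the imprinted gene Peg10 by 1.17 ± 0.24.

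In several lists edgeR called 0 genes in either direction. The interferon-stimulated genes (28 tested, 1 higher and 0 lower at an unadjusted p under 0.05) had 22 positive members. Proliferation genes had a positive value in 31 of 32 DNA replication genes and in 26 of 30 mitosis genes, with 3 and 0 higher and 0 and 0 lower at an unadjusted p under 0.05. Their medians in log2 were 0.34 and 0.18. No gene was called among 25 p53 targets, 14 class I antigen presentation genes, 38 nuclear oxidative phosphorylation genes, 26 sterol and fatty acid synthesis genes, 25 BMP ligands and targets, 14 NuRD complex genes, 20 histone deacetylases and chaperones, 12 Polycomb genes, 34 Hox genes (a list that does not hold Hoxb13), 30 ribosomal protein genes, 12 trophoblast genes, 7 germ line genes, 14 cartilage and bone genes, 9 adipocyte markers, 5 sex-linked genes, 11 macrophage markers or the 1 tested gene of the early cleavage list. At an unadjusted p under 0.05 these lists had 4 or fewer members on a side. Other lists held a single call on a side, among them the Nodal and Lefty pathway (Tdgf1, higher, of 16), NRF2 targets (Osgin1, lower, log2 fold change -2.48 ± 0.58, of 23), ATF4 and unfolded protein genes (Psat1 higher and Vldlr lower, of 28) and skeletal muscle markers (Mylpf higher and Tnnt3 lower, of 6, with Myf5 and Myog at 0 in all 6 libraries).

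**Figure D5:**
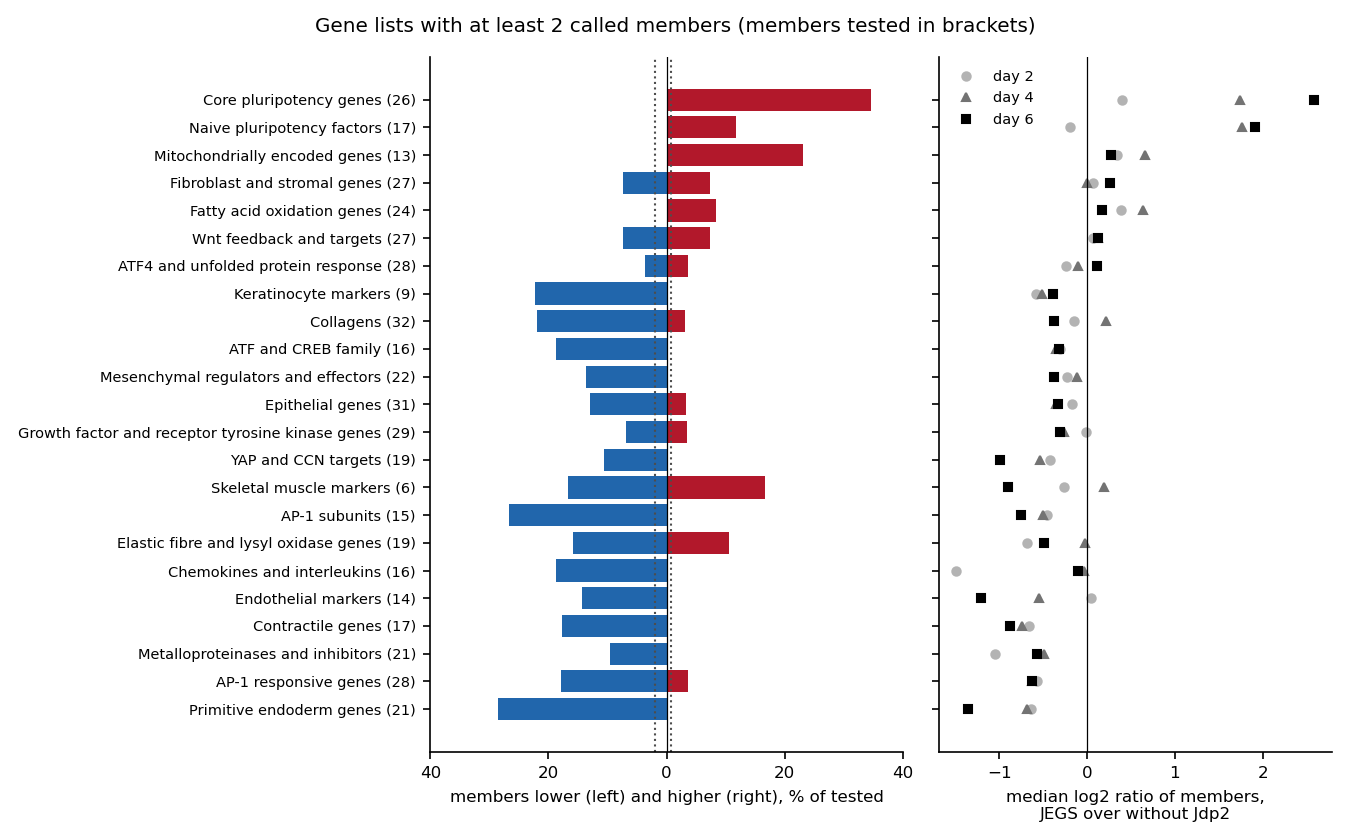
Left, share of tested members called lower (blue, to the left) and higher (red, to the right) for each gene list with at least 2 called members, with dotted lines at 2.00% and 0.819%, the shares among all genes tested. Right, median log2 ratio of JEGS over the set without Jdp2 on each day, where the core pluripotency genes move from 0.40 on day 2 to 2.59 on day 6.

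Most of these counts moved when 1 of the 6 libraries was left out. Lower collagens numbered 5 to 7, lower epithelial genes 2 to 4, lower mesenchymal regulators 1 to 2, lower contractile genes 1 to 4, lower keratinocyte markers 1 to 2 and lower endothelial markers 1 to 3. Among elastic fibre genes 0 to 1 were higher and 2 lower, and among fibroblast genes 0 to 1 were higher and 0 to 2 lower. Higher mitochondrially encoded genes numbered 0 to 3 and higher fatty acid oxidation genes 0 to 5. Pdk1 and Nes remained the called genes of their lists without any 1 library. Without day 4 each of these counts was 0.

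Outside the lists, the genes with the largest changes and a mean of at least 5 CPM were of mixed kinds. Higher in JEGS were, besides Utf1, Nanog and Pou5f1, the zinc-finger genes Zfp980 and Rex2, Crybb1, Rbmxl2, Dmrt1, Hoxb13, Scn4b, Ptgds and Plk5. Crybb1, a lens crystallin, was at 26.3, 122 and 27.7 CPM in JEGS against 0.467, 3.07 and 2.64 CPM (log2 fold change 4.67 ± 0.56, adjusted p 0.000463 in edgeR). Dmrt1, a gonadal transcription factor, was level over the days at 14.4, 17.3 and 16.7 CPM against 0.934, 0.877 and 1.32 CPM (log2 fold change 3.91 ± 0.71). Hoxb13, a posterior Hox gene, was at 1.59, 57.5 and 24.4 CPM against 0.467, 1.75 and 4.29 CPM (log2 fold change 3.55 ± 0.63). Crybb1 and Dmrt1 did not overlap between the arms, and Hoxb13 did, through its JEGS level on day 2. Scn4b, a sodium channel subunit, and Ptgds, a prostaglandin D synthase, were higher by 3.47 ± 0.44 and 3.23 ± 0.53.

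Zfp980 (chr4:145670685-145704441, mm10) was at 0.797, 5.18 and 60.4 CPM in JEGS against 0.467, 0 and 0 CPM. Rex2 (chr4:147021850-147060794), from the same family of closely similar zinc-finger genes, was at 3.99, 6.90 and 59.2 CPM against 1.40, 0.439 and 3.96 CPM. Reads of near-identical family members can be divided between them, so the values of Zfp980 and Rex2 are uncertain.

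The 12 genes with the largest changes in the other direction included hormones, a Notch ligand and a membrane transporter. Pyy, the gut peptide YY, was at 12.8, 5.75 and 4.50 CPM in JEGS and at 368, 181 and 86.0 CPM without Jdp2 (log2 fold change -4.70 ± 0.46, adjusted p 0.000202 in edgeR). Avp, vasopressin, had no counts in JEGS and was at 24.7, 18.4 and 9.89 CPM without Jdp2, at least 25.4-fold lower in JEGS from a floor of 3 counts over the arm. Sprr1a, a cornified envelope protein and known AP-1 target, was at 0, 1.73 and 2.57 CPM against 17.7, 28.5 and 15.8 CPM (log2 fold change -3.91 ± 0.65). The arms did not overlap for any of the 3.

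Dll4, a Notch ligand, was at 5.58, 4.60 and 9.0 CPM in JEGS against 93.4, 47.4 and 63.6 CPM (log2 fold change -3.35 ± 0.36). Spon2, a secreted matrix protein, was at 2.39, 0.575 and 0.643 CPM against 16.3, 11.4 and 16.2 CPM (log2 fold change -3.75 ± 0.65). Slc4a11, a membrane transporter, was at 16.7, 9.20 and 4.50 CPM against 225, 77.6 and 23.7 CPM, lowest on day 6 of these 3 days in both arms. Cyp4f18, Htra3, Ucn2, Sbsn and Scin completed the 12, with log2 fold changes from -3.17 to -4.00 and no overlap between the arms. The gap was narrow for Scin, whose day 6 level without Jdp2, 5.6 CPM, was next to its day 2 level of 5.58 CPM in JEGS. Hba-a1, an alpha globin that can share reads with its copy, was also lower, at 3.99, 1.73 and 1.29 CPM against 33.6, 9.65 and 14.8 CPM. The 4 red blood cell genes tested summed to 4.60 to 14.4 CPM in JEGS and 28.3 to 62.1 CPM without Jdp2, with Hbb-bs at 0 in all 6 libraries, and their part in the other results was not tested.

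Whether the difference itself changed with day was asked with a slope per arm. Of 16603 genes, 36 had a different slope (0.217%), 13 with a difference that rose with day (0.0783%) and 23 with one that fell (0.139%). Bcat1, which breaks down branched-chain amino acids, went from 38.3 to 79.96 and 179 CPM in JEGS, and stood at 64.0, 31.6 and 43.8 CPM without Jdp2, a slope difference of 0.68 ± 0.13 in log2 per day. Hmga1, a chromatin protein of proliferating cells, was at 616, 485 and 597 CPM in JEGS while it went from 2015 to 1003 and 666 CPM without Jdp2 (0.39 ± 0.07 per day). JEGS overtook the other arm for Bcat1 and approached it from below for Hmga1. Btg3, an antiproliferative gene, was at 12.8, 16.1 and 34.1 CPM against 43.9, 36.4 and 14.2 CPM (0.77 ± 0.16 per day). Prnd and Cpt1b fell the other way, with slope differences of -1.32 ± 0.25 and -1.26 ± 0.27 per day. The count of 36 was 12 with DESeq2, 0 with limma-trend (1158 at an unadjusted p under 0.05), 19 without the JEGS library of day 2, and 7 without the Jdp2-free library of day 2 or of day 6 or the JEGS library of day 6.

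The other 3 leave-out arms, which received Jdp2 and lack Esrrb, Glis1 or Sall4, were set against the set without Jdp2 on the same days. There 2107 genes differed (12.7%), of which 729 were higher than without Jdp2 (4.39%) and 1378 were lower (8.30%). Without the Jdp2-free library of day 2, 4 or 6 there were 372, 262 and 335 higher and 822, 675 and 872 lower genes, and without day 4 there were 90 and 364. Both comparisons use the same 3 libraries without Jdp2, so only their own values are given. Jdp2 averaged 876, 3172 and 1337 CPM in the arms without Esrrb, Glis1 and Sall4. Il11 had a log2 fold change of -4.42 against the set without Jdp2 in that comparison and -3.23 in JEGS, Krt8 had -3.98 and -2.87, and Col5a3 had -4.12 and -3.06. Fosb had -1.92 and -3.83. All of these passed the test in both comparisons. Of the 15 AP-1 subunits, 3 were higher and 5 lower in the other arms than without Jdp2. The mean over the other arms also hides arms that differ. Col7a1 averaged 76.9, 61.5 and 2020 CPM without Esrrb, Glis1 and Sall4, against 1145 CPM without Jdp2. Fn1 averaged 2578, 1790 and 6569 CPM in the same arms, against 5373 CPM. Nanog had -2.35 in the other arms (adjusted p 0.059 in edgeR) and 3.70 in JEGS, and of the 26 core pluripotency genes 11 were lower and 0 higher in the other arms (median -2.21), where each arm lacks another factor of the set. Pdk1 had 0.36 (adjusted p 0.27) and 1.66, and Peg10 had -0.34 (adjusted p 0.29) and 1.17. The difference between JEGS and the other 3 arms was not tested.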

How the data were processed

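RNA was sequenced from bulk reprogramming cultures. Per the submitters' processing notes, bcl2fastq, Bowtie2 and RSEM were used with the mm10 build, and versions and annotation release are not given in the sources used here. The authors deposited 1 RSEM table per library of 54752 genes, with estimated read counts (expected counts, not normalized) and TPM, per the file headers. Identifiers were matched to symbols for 54723 genes, and where several had 1 symbol the highest in counts took it, leaving 102 under their identifier. RSEM divides reads between similar genes, so counts of near-identical copies are uncertain.

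Expected counts were rounded and fitted with edgeR 4.0.16 (R 4.3.3) over the 15 libraries of 5 arms on days 2, 4 and 6, with arm and day as factors (8 residual degrees of freedom). Libraries were scaled by TMM, and a gene needed 1 CPM in at least 3 of them. The other arms enter so that the spread can be estimated. The quasi-likelihood F test is two-sided, and adjusted p is Benjamini-Hochberg over 16603 genes with a threshold of 0.05. Slopes per arm were added in a second fit with 4 residual degrees of freedom. An arm with no counts was set to a floor of 3 counts for a bound on the fold. Gene positions are from GENCODE M21, and promoters from RefSeq GRCm38.p6, where 78 of the 112 named genes were matched.

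On simulated counts with 100 genes changed per size, the comparison of JEGS with the set without Jdp2 recovered 37 genes at a true log2 change of 1 and 82 at 2, and called 5 unchanged genes, of 16067 tested. Apart from the set changes, each simulated gene had the same mean share of counts in all libraries, with no day, arm or batch effect. These rates therefore do not give the error of the calls in the real libraries, where Jdp2 and any batch cannot be told apart. One count was worth 0.344 to 0.79 CPM in the 6 libraries, and counting error alone is covered by bounds.

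The members, the 51 gene lists and the tests were chosen with earlier results of these data known. Named genes were the 4 factors; up to 4 called members of each list with the largest change (up to 10 for AP-1 and pluripotency lists); the 12 genes per direction with the largest change among those called, at a mean of at least 5 CPM and of the same sign on all days, without predicted genes; and up to 5 per direction for slopes. Members named without passing the test were chosen after their values were seen. Alternatives were DESeq2 1.42.0, its size factors, no filter, limma-trend 3.58.1 on log2(TPM + 1), no day term, 6 or all 35 libraries, thinning to 1266367 counts, and leaving out each library or day. Python 3.11.15 and matplotlib 3.10.9 drew the plots. Some list members enter the counts and are not reported here by name.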

Additional observations from a re-analysis of the deposited data

Results flagged for a closer look

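The difference between JEGS and the set without Jdp2 changed with day, by the test of the slope difference, for 36 genes. Among those named by the rule, the difference rose with day for mt-Atp6 (6.13 in log2 per day), Btg3 (0.77), Bcat1 (0.68) and Hmga1 (0.39). It fell with day for mt-Co2 (-9.84), Tmem254c (-2.14), Pgam1-ps2 (-1.79), Prnd (-1.32) and Cpt1b (-1.26). mt-Co2 was listed at 0, 276 and 0 CPM in JEGS and at 0, 0 and 213 CPM without Jdp2, and mt-Atp6 at 0, 0 and 286 CPM against 286, 265 and 67.2 CPM, although every cell expresses these genes. Near-identical nuclear copies of mitochondrial genes exist, so reads of mt-Co2 and mt-Atp6 can be divided between copies, and their values are uncertain. The pseudogene Pgam1-ps2 is uncertain for the same reason. Prnd, a prion-like protein gene, was at 11.2, 18.4 and 6.43 CPM in JEGS and at 0.934, 5.70 and 18.5 CPM without Jdp2. Cpt1b, which imports fatty acids into mitochondria, was at 19.9, 9.78 and 2.57 CPM against 0.934, 4.82 and 5.93 CPM. Both were higher in JEGS on days 2 and 4 and lower on day 6.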

How the results depend on the processing

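Each of the 468 called genes kept its direction under every alternative in which it could be tested. The genes were chosen with the same libraries that the alternatives use, so kept directions and unadjusted p-values are not independent of that choice. The counts moved. Against 136 higher and 332 lower genes there were 414 and 708 with no filter, 47 and 162 with limma-trend, 405 and 837 with the 6 libraries only, 81 and 136 without day 2, and 1 and 1 without day 4, where 458 of 465 genes were still at an unadjusted p under 0.05 in the same direction. There were 219 higher genes without day 6. Leaving out 1 library gave 18 to 104 higher and 85 to 272 lower genes. Day is the only number that the arms share, so the block is the day term: with no replicate block there were 50 higher and 168 lower genes, and no other paired analysis was possible because each arm has 1 library per day. Against 36 genes for the slope difference there were 12 with DESeq2, 147 with no filter, 0 with limma-trend (1158 at an unadjusted p under 0.05), 3 with no replicate block, 401 with the 6 libraries, 4 with all 35 libraries, 105 after thinning, and 7 to 36 without 1 library. The slope of mt-Co2 ranged from -11.253 to 4.73 without 1 library, reversed without the Jdp2-free library of day 6. Against 729 higher and 1378 lower genes in the other leave-out arms there were 360 higher with limma-trend, 1761 and 2521 with all 35 libraries, 426 higher without day 2, 90 and 364 without day 4, and 262 to 827 and 675 to 1493 without 1 library. Of 100 named genes, 99 kept the call with DESeq2 size factors, 93 with DESeq2, 87 after thinning, 47 with limma-trend and 1 of 99 without day 4. The cause was not tested, except that leaving out a day or library leaves fewer samples. DESeq2 size factors gave 147 and 316 genes, and no alternative moved the median of all genes by over 0.1.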

Other observations

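Actin cytoskeleton and focal adhesion genes, a list written after the values were seen and given with no test of its own, were often among the lower calls. Of 46 tested, 15 were lower in JEGS and 0 were higher, beside 2.00% and 0.819% of all genes tested. A negative log2 fold change was found in 39 of the 46 (median -0.49, beside 0.017 over all genes tested). Tagln2, an actin-bundling protein, had a log2 fold change of -1.28 ± 0.26, the non-muscle actinin Actn1 -1.11 ± 0.16, the tropomyosin Tpm4 -1.08 ± 0.15, the non-muscle myosin Myh9 -0.88 ± 0.17 and filamin Flna -0.56 ± 0.14. Tpm1, Cnn2, Pdlim7 and Itga5 of this list are described above.

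Zfp980 and Rex2 lie in a cluster of zinc-finger genes on chromosome 4 (chr4:145510759-147848366, mm10), which was looked at after their values were seen. Only Rex2 and genes named Zfp with a number were counted there, so predicted and otherwise named genes of the interval are left out. Of the 16 such genes tested 4 were higher in JEGS (Zfp980, Zfp600, Rex2 and Zfp534) and all 16 had a positive log2 fold change, with a median of 1.56. The sign was not the same on each day. On day 2 Zfp981, Zfp982, Zfp985, Zfp990 and Zfp992 were lower in JEGS, and Zfp600 and Zfp988 had no counts in either arm. On day 4 Zfp981, Zfp982 and Zfp993 were lower. Only on day 6 was each of the 16 higher, and that day is 1 library per arm. These genes are closely similar, so their counts are not independent of each other.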
